A study of Mus musculus with 28 samples.

Results

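The genes described are 10 innate immune genes of mouse liver, 7 Toll-like receptors (Tlr1, Tlr2, Tlr4, Tlr7, Tlr8, Tlr9 and Tlr13) and the 3 components of the NLRP3 inflammasome (Nlrp3, Casp1 and Pycard). They were chosen by name, with earlier results of these data known. All 10 matched 1 row each among the 49585 features of the liver count table. Livers came from C57BL/6JOlaHsd mice of 5 to 7 months, killed after a short fast, with 7 WT and 7 SIRT6-tg animals of each sex, which gives 4 groups. SIRT6-tg mice overexpressed SIRT6, a deacylase that acts on histones, in the whole body. All of them descended from 1 transgenic line that had been backcrossed to this strain, so effects of that line's insertion cannot be told apart from effects of SIRT6, and the promoter that drives the transgene is not given in the sources used here. WT mice were littermates without the transgene. The labels give each library as a separate mouse.

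Toll-like receptors (TLRs) are membrane proteins of macrophages, dendritic cells, neutrophils and B cells that recognise microbial molecules through leucine-rich repeats and signal through adaptors such as MYD88 to NF-kB and interferon regulatory factors. TLR1, TLR2 and TLR4 sit at the cell surface, where TLR2 paired with TLR1 reads bacterial lipoproteins and TLR4 reads lipopolysaccharide. TLR7 and TLR8 (single-stranded RNA), TLR9 (CpG DNA) and TLR13 (bacterial ribosomal RNA) sit in endosomes. The NLRP3 inflammasome is a cytosolic complex in which the sensor NLRP3 and the adaptor ASC, encoded by Pycard, activate caspase-1, which cleaves pro-IL-1β, pro-IL-18 and gasdermin D. In the liver these proteins are best known from Kupffer cells, the resident macrophages, and from recruited monocytes.

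Library totals ranged from 18758863 to 35393069 counts, and 21583 genes were tested. Levels are given in CPM, the read count of a gene scaled to a common library size after correction by trimmed means of M-values (TMM). The label of the tissue was checked on 8 hepatocyte markers, whose summed level was between 98032 and 191826 CPM in all 28 libraries. Sirt6, the overexpressed gene, was at 2.73 ± 0.511 CPM (SD, n = 7) in male WT and 281 ± 55.2 CPM in male SIRT6-tg livers (log2 fold change 6.68, SE 0.30, edgeR adjusted p = 1.78e-15). In females it was at 2.88 ± 1.55 CPM in WT and 30.2 ± 12.5 CPM in SIRT6-tg livers (log2 fold change 3.39, SE 0.26, adjusted p = 3.32e-09). Reads of the transgene and of the mouse gene were counted together. Every SIRT6-tg library lay above every WT library of its sex.

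Promoters are shown for part of the members. Those of Tlr8 and Nlrp3 and a second promoter of Tlr1 are not shown. RefSeq promoters (build GRCm38.p6) were found for 8 of the 10 members, with Tlr4 and Tlr7 left without an entry. Capitals mark the core of the site for PU.1, the ETS factor of the macrophage lineage, searched as GAGGAA on both strands. In the 250 bases before the start site this core occurred in 7 of the 10 member promoters, belonging to 7 of the 8 genes, and in 23.3% of all 32851 promoters, so the letters are common and a match is a description of sequence. The stretches below end at the annotated gene and run 5′ to 3′ on the gene's own strand: Tlr1 (chr5:64933564-64933808, minus strand), Tlr13 (chrX:106143025-106143203, plus), Tlr9 (chr9:106222348-106222597, plus), Casp1 (chr9:5298267-5298516, plus), Pycard (chr7:127993868-127994117, minus) and Tlr2 (chr3:83841768-83841858, minus). All but the Tlr2 stretch hold the core.
Tlr1: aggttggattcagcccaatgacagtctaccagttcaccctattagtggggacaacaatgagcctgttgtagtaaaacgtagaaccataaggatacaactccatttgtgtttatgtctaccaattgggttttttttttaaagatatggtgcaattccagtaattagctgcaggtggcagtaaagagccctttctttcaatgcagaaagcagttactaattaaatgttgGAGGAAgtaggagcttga
Tlr13: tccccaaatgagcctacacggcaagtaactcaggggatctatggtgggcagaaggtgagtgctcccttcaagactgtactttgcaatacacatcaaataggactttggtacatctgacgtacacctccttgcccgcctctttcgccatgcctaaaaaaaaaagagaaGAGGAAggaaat
Tlr9: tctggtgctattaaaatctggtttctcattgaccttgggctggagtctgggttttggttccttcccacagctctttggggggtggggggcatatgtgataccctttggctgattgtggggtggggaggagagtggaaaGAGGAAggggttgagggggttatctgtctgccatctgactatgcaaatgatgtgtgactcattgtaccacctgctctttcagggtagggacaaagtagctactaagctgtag
Casp1: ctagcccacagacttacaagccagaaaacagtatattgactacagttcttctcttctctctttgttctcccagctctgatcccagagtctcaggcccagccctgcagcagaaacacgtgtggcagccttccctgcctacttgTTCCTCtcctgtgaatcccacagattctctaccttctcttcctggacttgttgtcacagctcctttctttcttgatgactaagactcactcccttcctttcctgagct
Pycard: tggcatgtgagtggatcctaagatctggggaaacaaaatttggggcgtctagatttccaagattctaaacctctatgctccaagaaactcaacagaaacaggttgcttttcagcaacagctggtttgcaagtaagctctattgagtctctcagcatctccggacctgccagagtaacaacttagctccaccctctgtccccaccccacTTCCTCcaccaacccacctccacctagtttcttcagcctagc
Tlr2: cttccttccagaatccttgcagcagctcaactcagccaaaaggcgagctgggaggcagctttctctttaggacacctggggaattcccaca
The core ended 18 bases before the RefSeq start site in Tlr1, 37 bases before it in Pycard, 78 in Tlr13, 103 in Casp1 and 107 in Tlr9. Tlr8 held 1 core 72 bases before its start. Nlrp3 held 3 in 1 of its 2 promoters and 0 in the other, which lies at the annotated gene start. The second promoter of Tlr1 held 0. A κB site, the element bound by NF-kB, was matched in the 300-base promoters of Tlr2 (3 matches) and Nlrp3 (1 match), against 8.46% of all promoters. The interferon response element and the ETS-IRF composite element were matched in none of the 10 member promoters, against 3.44% and 2.72% of all promoters. The TATA box TATAAA was matched in Tlr8 alone, against 13.6% of all promoters.

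The members lay at low levels in whole liver. Levels between genes were compared per kilobase of exon. In male WT mice Tlr2 was highest, at 8.32 ± 4.03 CPM per kilobase (SD, n = 7), followed by Casp1 at 4.98 ± 2.0. The other 8 members lay between 1.12 ± 0.395 (Tlr13) and 0.319 ± 0.149 CPM per kilobase (Tlr9). Casp1 was separated from the third member, Tlr13, without overlap, and Tlr2 exceeded Casp1 in 7 of 7 libraries although their ranges overlapped. Each further pair of neighbours in that order, Tlr13, Tlr1, Pycard, Tlr7, Nlrp3, Tlr4, Tlr8 and Tlr9, had overlapping ranges. In the other 3 groups Casp1 stood first and Tlr2 second, and the ranges of these 2 overlapped. Tlr9 was last in all 4 groups. The level of Pycard, whose annotated exons span 3800 bases and which overlaps the predicted gene Gm45205 on the opposite strand by 485 bases, is uncertain, since the library kit does not mark strand and the long exon model lowers a value per kilobase. Tlr1 shares a nearly identical stretch with its neighbour Tlr6. Because the authors kept uniquely mapped reads, those matching both genes equally well were left out and the levels of both are uncertain.

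In males, 9 of the 10 members were lower in SIRT6-tg than in WT livers, where 11% of all genes tested were called lower, 9.68% higher and 20.7% in either direction. All 10 had a negative log2 fold change, as 44.7% of all genes did, with a median of −1.41, against 0.06 over all genes. Tlr8 alone did not pass (log2 fold change −1.03, adjusted p = 0.0710). Calls used edgeR's quasi-likelihood test over all 28 libraries, with Benjamini-Hochberg adjusted p under 0.05. Since the members were chosen with earlier results of these data known, the shares over all genes stand beside them as a description.

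Among the surface receptors, Tlr1 (ENSMUSG00000044827.10, chr5:64924679-64933563 of GRCm38, minus strand, 5 exons) ranged from 2.06 to 5.03 CPM (median 3.39) in male WT and from 0.477 to 1.24 CPM (median 0.740) in male SIRT6-tg livers. All 7 SIRT6-tg libraries lay below all 7 WT libraries, a separation found for 4.37% of all genes tested. The log2 fold change was −2.16 (SE 0.26, edgeR adjusted p = 4.72e-07), a 4.48-fold lower level. Tlr2 (ENSMUSG00000027995.10, chr3:83836272-83841767, minus strand, 3 exons), its partner in lipoprotein recognition, ranged from 11.8 to 43.6 CPM (median 24.9) in WT and from 4.15 to 13.2 CPM (median 4.61) in SIRT6-tg libraries. Of the SIRT6-tg libraries, replicate 6 reached into the WT range and the other 6 lay below it. The log2 fold change was −2.10 (SE 0.30, edgeR adjusted p = 5.77e-06), and −2.45 without that library. Tlr4 (ENSMUSG00000039005.13, chr4:66827584-66930284, plus strand, 6 exons), the lipopolysaccharide receptor, ranged from 1.30 to 4.24 CPM (median 2.70) in WT and from 0.849 to 2.14 CPM (median 1.35) in SIRT6-tg libraries. Only 3 SIRT6-tg libraries lay below the WT range, and the log2 fold change of −0.91 (SE 0.24, edgeR adjusted p = 0.00589) was the smallest of the 10 members.

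Of the endosomal receptors, Tlr13 (ENSMUSG00000033777.3, chrX:106143204-106160493, plus strand, 4 exons) ranged from 2.89 to 7.08 CPM (median 5.30) in male WT and from 0.933 to 2.15 CPM (median 1.16) in male SIRT6-tg libraries, again without overlap. Its log2 fold change was −1.89 (SE 0.24, edgeR adjusted p = 9.92e-07). Tlr7 (ENSMUSG00000044583.13, chrX:167304929-167330558, minus strand, 6 exons) ranged from 1.35 to 4.01 CPM (median 2.61) in WT and from 0.699 to 1.61 CPM (median 1.23) in SIRT6-tg libraries. For Tlr7, 6 of 7 SIRT6-tg libraries lay below the WT range, and the log2 fold change was −1.22 (SE 0.25, edgeR adjusted p = 0.000577). Tlr9 (ENSMUSG00000045322.10, chr9:106222598-106226883, plus strand, 2 exons) was close to the limit of detection, with 9 to 79 reads per library (0.379 to 1.96 CPM, median 1.15) in WT and 0 to 12 reads (0 to 0.450 CPM, median 0.277) in SIRT6-tg livers. The library at 0 was SIRT6-tg replicate 4, and a count of 0 allows up to 3 reads by counting error. The log2 fold change of Tlr9 was −2.16 (SE 0.39, edgeR adjusted p = 0.000126). Tlr8 (ENSMUSG00000040522.5, chrX:167242696-167264329, minus strand, 4 exons) had 9 to 86 reads (0.379 to 2.13 CPM, median 1.31) in WT and 4 to 30 reads (0.155 to 1.04 CPM, median 0.666) in SIRT6-tg libraries. Here 5 of 7 SIRT6-tg libraries lay within the WT range. The call of Tlr8 turned on single libraries, since its adjusted p was 0.0390 without male WT replicate 1, 0.0305 without male WT replicate 6 and 0.0492 without male SIRT6-tg replicate 3.

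Transcripts of all 3 inflammasome components fell in SIRT6-tg males, while for each of them 1 SIRT6-tg library reached into the WT range. Of the 7 WT libraries, 5 lay above all SIRT6-tg libraries for Nlrp3, 6 for Casp1 and 4 for Pycard. The sensor Nlrp3 (ENSMUSG00000032691.14, chr11:59541568-59566956, plus strand, 11 exons) ranged from 1.29 to 3.94 CPM (median 2.83) in WT and from 0.424 to 1.42 CPM (median 1.03) in SIRT6-tg libraries, a log2 fold change of −1.36 (SE 0.28, edgeR adjusted p = 0.000696). The protease gene Casp1 (ENSMUSG00000025888.5, chr9:5298517-5307265, plus strand, 10 exons) ranged from 4.0 to 11.9 CPM (median 6.10) in WT and from 2.51 to 4.33 CPM (median 3.30) in SIRT6-tg libraries, a log2 fold change of −1.22 (SE 0.22, edgeR adjusted p = 0.000131). The adaptor gene Pycard (ENSMUSG00000030793.4, chr7:127989708-127993867, minus strand, 3 exons) ranged from 1.56 to 7.50 CPM (median 3.15) in WT and from 0.675 to 2.55 CPM (median 1.11) in SIRT6-tg libraries, a log2 fold change of −1.46 (SE 0.29, edgeR adjusted p = 0.000464). The highest Pycard value was male WT replicate 6, without which the log2 fold change was −1.14. The plot of CPM by library shows these ranges.

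**Figure D1:**
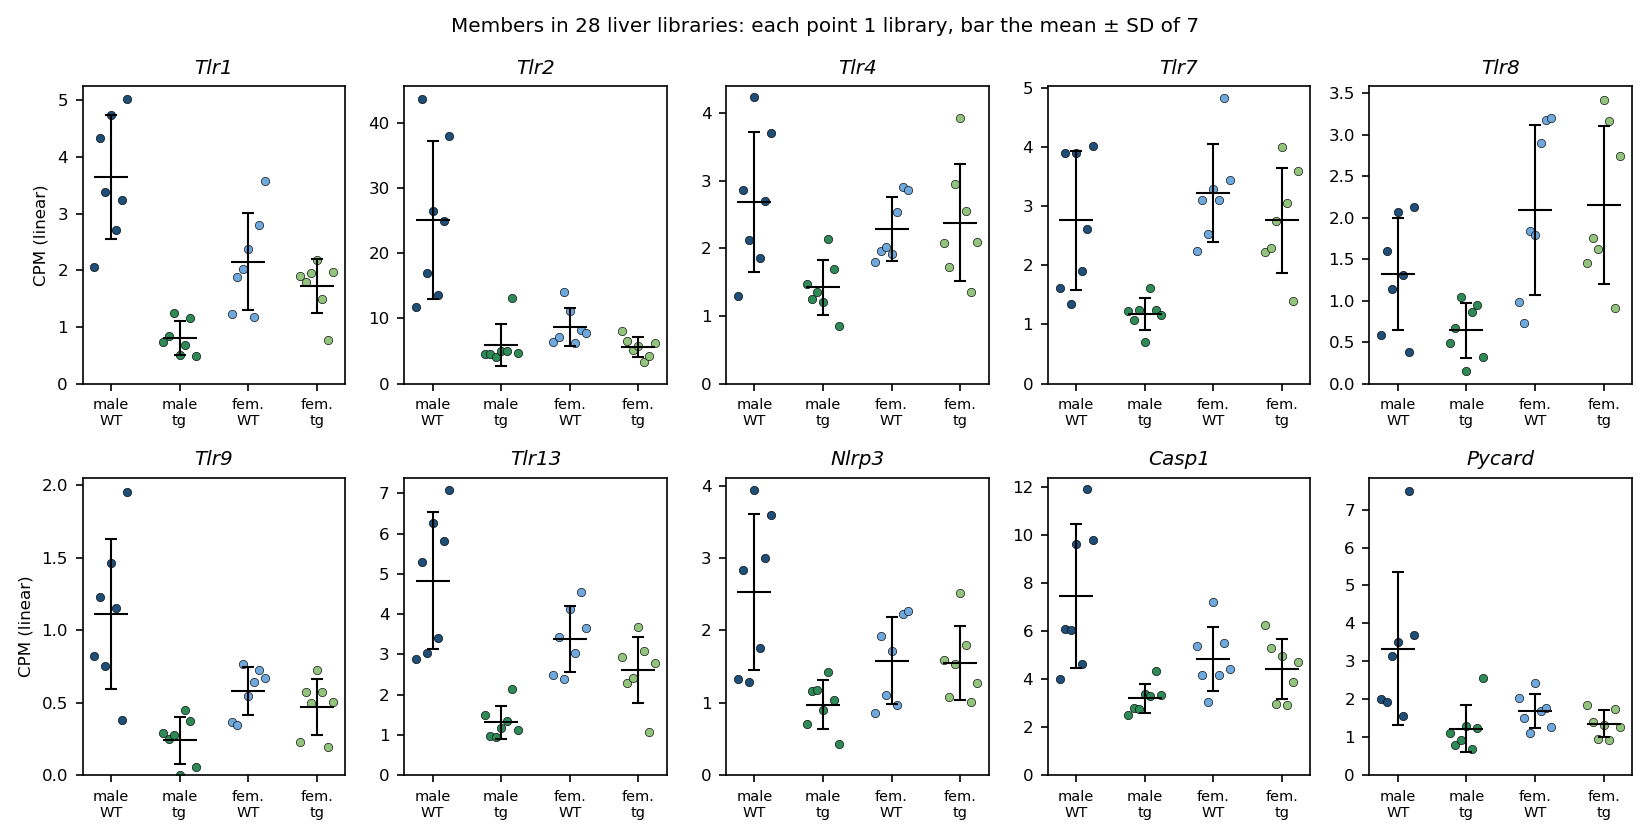
Level in CPM (linear axis from 0, a scale of its own for each gene) of the 10 members in the 4 groups, with 1 point per library and a bar for the mean ± SD of 7 libraries. The male SIRT6-tg libraries lie below all male WT libraries for Tlr1 and Tlr13, and male SIRT6-tg replicate 6 stands at 13.2 CPM for Tlr2.

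Markers of Kupffer cells and of monocytes and macrophages were lower in the same libraries, where 11% of all genes tested were called lower. Which cells carried the members was not measured in bulk liver. All 7 Kupffer cell markers fell in SIRT6-tg males, from −0.55 on the log2 scale for Clec4f, a lectin of Kupffer cells, to −3.29 for the scavenger receptor Marco. All 8 markers of monocytes and macrophages fell as well, among them Adgre1, which encodes F4/80 (log2 fold change −1.28), and the chemokine receptor gene Ccr2 (−2.34). The summed Kupffer list ranged from 339 to 1092 CPM in male WT and from 283 to 482 CPM in male SIRT6-tg livers, and the macrophage list from 174 to 542 CPM and from 138 to 234 CPM. No marker of either list was at 0. In bulk liver, fewer cells of a type and less RNA per cell cannot be told apart. Outside the myeloid lists, 6 of 6 T cell markers, 4 of 6 dendritic cell markers, 3 of 5 B cell markers, 2 of 5 plasmacytoid dendritic cell markers and 4 of 5 stellate cell markers were called lower. Of the remaining lists, 1 of 5 neutrophil markers tested (Csf3r), 1 of 6 endothelial markers (Pecam1) and 0 of 5 cholangiocyte markers were called lower (1 had an unadjusted p under 0.05 by edgeR, and DESeq2 called 0), while 3 of 8 hepatocyte markers (Alb, Fgb and Serpinc1, by 0.35 to 0.40) and 1 of 5 erythroid markers (Alas2) were called higher. The neutrophil marker Ly6g was at 0 in all male SIRT6-tg libraries and had 0 to 4 reads in male WT libraries. Small rises may depend on the scaling, and the shares over all genes are given with the pathway lists. The part of these cell types in the change of the members was not tested.

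The members were also set beside these lists as ratios. Every member of a library was divided by the same sum, so the ratios largely repeat the order of the members' own fold changes. Where a ratio shows no difference depends on the genes in the sum, and the Kupffer markers themselves ran from −0.55 to −3.29. On the log2 scale, the ratio of Tlr1 to the summed Kupffer list was lower in male SIRT6-tg than in male WT libraries by a mean difference of −1.02, that of Tlr2 by −1.0, that of Tlr9 by −0.86 and that of Tlr13 by −0.73. Tlr9 had as few as 0 reads in male SIRT6-tg libraries, so its ratio depends on the pseudocount of 0.1 CPM. The ratios of Casp1, Tlr7, Nlrp3 and Pycard differed by −0.07, −0.03, −0.21 and −0.26, and those of Tlr8 and Tlr4 by 0.13 and 0.22. Against the macrophage list the same values ran from −0.97 for Tlr1 to 0.27 for Tlr4. All of these ratios overlapped between the groups and none was tested. The scatter against the macrophage list shows 3 members, Tlr13 and Tlr2 with a lower mean ratio and Casp1 with a ratio that differed little.

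**Figure D2:**
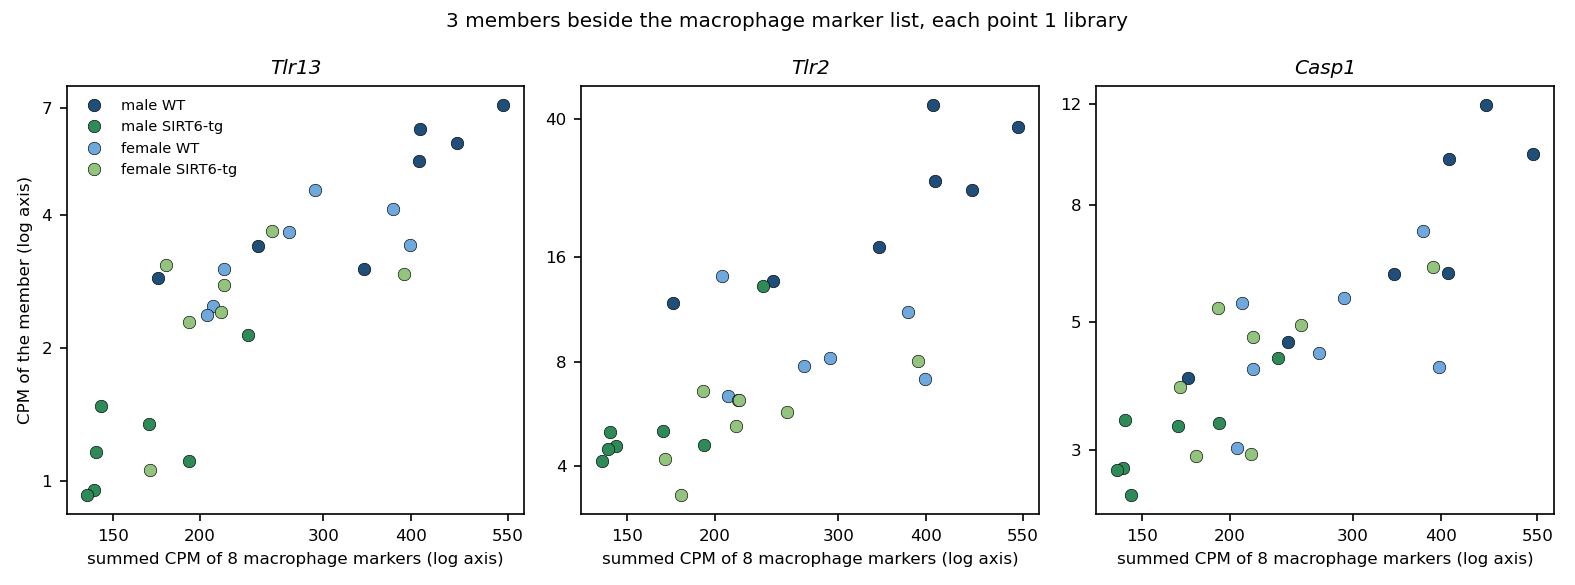
Level of Tlr13, Tlr2 and Casp1 (CPM, log axis) against the summed level of 8 monocyte and macrophage markers (CPM, log axis) in 28 libraries, coloured by group. The male SIRT6-tg libraries lie at 138 to 234 CPM of the markers and male WT libraries reach 542 CPM. In the Tlr2 panel male SIRT6-tg replicate 6 stands apart at 13.2 CPM, and the lowest value, 3.31 CPM, is a female SIRT6-tg library.

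In females, 0 of the 10 members passed the edgeR test between SIRT6-tg and WT livers, where 0.0278% of all genes tested (6 genes) were called. DESeq2 also called 0 members, and 1 member had an unadjusted p under 0.05, against 5.62% of all genes. That member was Tlr2, which ranged from 6.21 to 14.1 CPM (median 7.78) in female WT and from 3.31 to 8.01 CPM (median 5.72) in female SIRT6-tg libraries. Its log2 fold change was −0.64 (95% interval −1.23 to −0.04, edgeR unadjusted p = 0.0374, adjusted p = 0.837), and 5 of 7 SIRT6-tg libraries lay below the WT range. Over the members the female log2 fold changes ran from −0.64 to 0.06 with a median of −0.25, and 8 were negative, against 49.4% of all genes. The intervals bound what these libraries can show. For Tlr4 the interval was −0.41 to 0.54 and for Casp1 it was −0.57 to 0.32, whereas for Tlr9, with 4 to 25 reads per female library, it was −1.05 to 0.49. None of the Kupffer or macrophage markers passed in females (1 of 15, Marco, had an unadjusted p under 0.05 by edgeR, and DESeq2 called 0). All 7 Kupffer cell and all 8 macrophage markers had a negative log2 fold change there, with medians of −0.29 and −0.32. The summed macrophage list ranged from 205 to 398 CPM in WT and from 170 to 391 CPM in SIRT6-tg females.

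The other 9 members, like Tlr2, overlapped between the genotypes in females. Tlr1 ranged from 1.17 to 3.58 CPM (median 2.02) in WT and from 0.771 to 2.19 CPM (median 1.90) in SIRT6-tg females, and the lowest value was SIRT6-tg replicate 6. Tlr13 ranged from 2.38 to 4.56 CPM (median 3.42) and from 1.06 to 3.68 CPM (median 2.79), with 2 of 7 SIRT6-tg libraries below the WT range and replicate 6 again lowest. Their log2 fold changes were −0.31 (95% interval −0.82 to 0.20) and −0.37 (−0.84 to 0.11), so that a change as large as the male one lay outside both intervals. Tlr7 ranged from 2.25 to 4.83 CPM in WT and from 1.40 to 4.01 CPM in SIRT6-tg females (log2 fold change −0.22). Tlr8 ranged from 0.730 to 3.20 CPM and from 0.916 to 3.42 CPM (0.05), and Tlr9 from 0.346 to 0.764 CPM and from 0.193 to 0.728 CPM (−0.28). Of these 3 endosomal receptors, Tlr8 had no SIRT6-tg library below its WT range, and Tlr7 and Tlr9 had 2 each. Tlr4 ranged from 1.80 to 2.91 CPM in WT and from 1.35 to 3.93 CPM in SIRT6-tg females, so SIRT6-tg libraries lay on both sides of the WT range. Nlrp3 ranged from 0.859 to 2.27 CPM and from 1.01 to 2.51 CPM (log2 fold change −0.03), and Casp1 from 3.02 to 7.22 CPM and from 2.93 to 6.25 CPM (−0.13). Pycard ranged from 1.10 to 2.42 CPM and from 0.914 to 1.86 CPM (−0.32). The inflammasome components thus shared most of their range between the female genotypes, with 0, 2 and 2 of 7 SIRT6-tg libraries below the WT range for Nlrp3, Casp1 and Pycard.

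**Figure D3:**
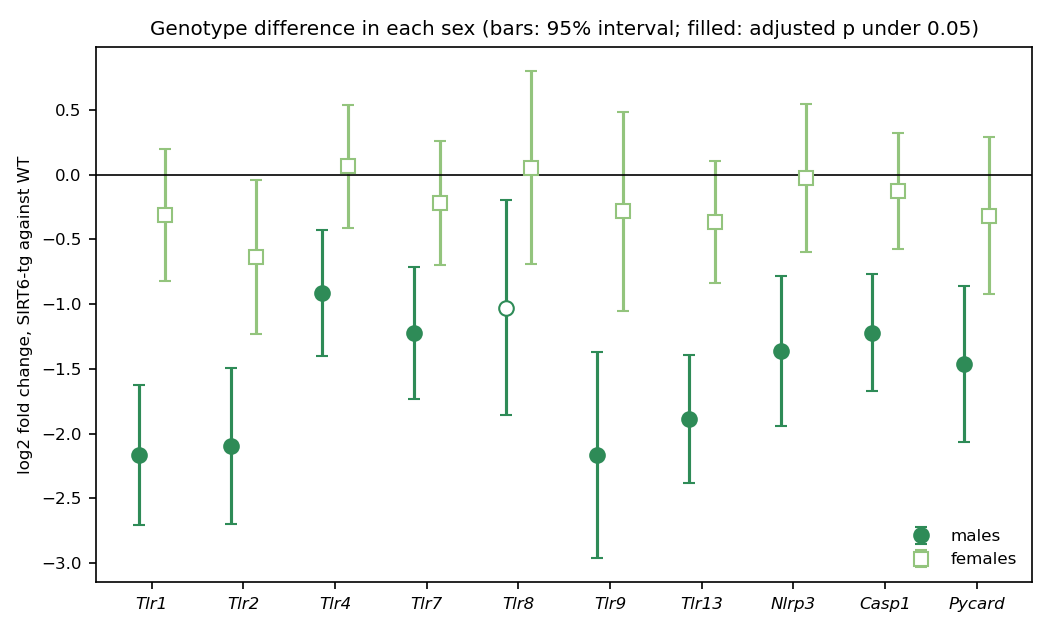
Log2 fold change of each member between SIRT6-tg and WT mice, in males (circles) and females (squares), with 95% intervals. Filled symbols passed an adjusted p of 0.05. The male values lie between −2.16 and −0.91 and the female values between −0.64 and 0.06.

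The genotype effect was then compared between the sexes by an interaction term. It differed for 6 members, each with a lower male than female value, where 3.84% of all genes were called in that direction, 1.2% in the other and 5.04% in all. These were Tlr9 (difference of log2 fold changes −1.88, SE 0.55, edgeR adjusted p = 0.0380), Tlr1 (−1.85, SE 0.36, adjusted p = 0.00235), Tlr13 (−1.52, SE 0.33, adjusted p = 0.00585), Tlr2 (−1.46, SE 0.41, adjusted p = 0.0332), Nlrp3 (−1.34, SE 0.40, adjusted p = 0.0456) and Casp1 (−1.09, SE 0.31, adjusted p = 0.0338). The differences for Pycard (−1.14, adjusted p = 0.114), Tlr8 (−1.08, adjusted p = 0.283), Tlr7 (−1.0, adjusted p = 0.0883) and Tlr4 (−0.98, adjusted p = 0.0872) did not pass. The 95% interval for Tlr8 was −2.19 to 0.03, and those of the other 3 lay below 0. Tlr1 and Tlr13 were called in all 28 fits that left out 1 library, with adjusted p of at most 0.00545 and 0.0128. Tlr9 was called in 17 of the 28, Casp1 in 15, Tlr2 in 14 and Nlrp3 in 10. The count of 6 fell to 2 without male WT replicate 7, male SIRT6-tg replicate 2 or female SIRT6-tg replicate 4. It was 3 without male WT replicate 4, male SIRT6-tg replicate 1, any of female WT replicates 1, 2 and 5, or any of female SIRT6-tg replicates 1, 2 and 7. Sirt6 itself differed between the sexes, with a male effect larger by 3.29 on the log2 scale, and 4 of 8 macrophage markers (Ccr2, Cx3cr1, Ly6c2 and Cd68) and 1 of 7 Kupffer cell markers (Marco) had a lower effect in males by the same term. Their part in the differences was not tested.

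Levels were also compared between the sexes within each genotype. In WT mice 3 members were higher in males, where 6.66% of all genes were called higher and 12.4% in either direction. Tlr2 was 2.88-fold higher (log2 fold change 1.53, edgeR adjusted p = 0.000523), Pycard 1.98-fold (0.99, adjusted p = 0.0191) and Tlr1 1.70-fold (0.77, adjusted p = 0.0332). The Pycard call rested on male WT replicate 6, without which its log2 fold change was 0.66 and the adjusted p 0.0862. Tlr1 was lost without any of male WT replicates 2, 4 and 7 or female WT replicates 1, 2, 3 and 5. The count rose to 5 without male WT replicate 1 or 3. In SIRT6-tg mice 5 members were lower in males, where 10.2% of all genes were called lower and 23.1% in either direction. They were Tlr8 (log2 fold change −1.73, edgeR adjusted p = 0.00225), Tlr7 (−1.22, adjusted p = 0.000717), Tlr1 (−1.09, adjusted p = 0.00392), Tlr13 (−1.0, adjusted p = 0.00352) and Tlr4 (−0.74, adjusted p = 0.0255). Tlr4 was lost without male SIRT6-tg replicate 4 or 7 or female SIRT6-tg replicate 3 or 4. The 3 X-linked members, Tlr7, Tlr8 and Tlr13, were all among the 5, and none of them passed in WT mice, where their log2 fold changes were −0.22, −0.65 and 0.52. Tlr2 was 5.86 ± 3.23 CPM in male and 5.6 ± 1.55 CPM in female SIRT6-tg mice (SD, n = 7 each), and the log2 fold change was 0.07 (95% interval −0.54 to 0.67), with a sign that turned under upper-quartile scaling (−0.02) and library size alone (−0.04). The summed macrophage list had medians of 410 CPM in male and 268 CPM in female WT mice, and of 145 and 214 CPM in male and female SIRT6-tg mice. Its part in the sex differences was not tested.

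The sexes also differed in trends of the libraries with GC content and with transcript length. The GC index was the median log2 deviation of genes in the quartile of highest GC minus that of genes in the lowest. It ran from 0.009 to 0.361 in male WT and from −0.295 to 0.101 in female WT libraries. In SIRT6-tg libraries it ran from −0.020 to 0.235 in males and from −0.326 to 0.008 in females. The length index was the median log2 deviation of genes in the longest quartile of transcripts minus that of genes in the shortest. It had medians of −0.04 in male WT and −0.12 in male SIRT6-tg libraries and of 0.32 and 0.34 in female WT and SIRT6-tg libraries, with overlapping ranges. Within groups, over 28 libraries prepared with the same kit and with totals that differ as given above, Tlr8 and Tlr9 followed this index (Pearson's r of 0.76 and 0.74) and Pycard ran against it (−0.73). With smooth trends on length and GC content removed from each library, an alternative chosen after the data were seen, 10 members were lower in SIRT6-tg males (Tlr8 with an edgeR adjusted p of 0.0496), 0 passed in females and 6 differed between the sexes. Tlr4 no longer passed between male and female SIRT6-tg mice (log2 fold change −0.48, edgeR adjusted p = 0.108). The length used was that of the longest annotated transcript, 3800 bases for Pycard beside 3431 for Tlr8 and 3478 for Tlr9. Pycard was thus treated as a long gene although it ran against the length index, so its values with trends removed are uncertain.

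Genes that work with the members were read from lists. Over all genes, the share of male calls that were higher was 46.8% by TMM. It was 4.89% by library size alone and 60.4% with length and GC trends removed, so small rises are uncertain. TMM factors ranged from 1.06 to 1.17 in male WT and from 0.821 to 0.993 in male SIRT6-tg libraries. Of the 5 other TLR genes, 4 fell in SIRT6-tg males: Tlr11 (log2 fold change −1.63) and Tlr6 (−1.19), a surface partner of TLR2, Tlr12 (−0.55) and Tlr3 (−0.51), the endosomal sensor of double-stranded RNA. The flagellin receptor gene Tlr5 did not pass (0.21). Of 9 co-receptors and chaperones, 4 fell and 1 rose. Those that fell were Cd180 (−1.88) and its partner Ly86 (−1.20), the lipopolysaccharide co-receptor Cd14 (−1.24) and Unc93b1 (−0.65), which carries endosomal TLRs out of the endoplasmic reticulum. Unc93b1 ranged from 52.9 to 86.3 CPM in male WT and from 39.7 to 48.2 CPM in male SIRT6-tg livers, without overlap. The chaperone Hsp90b1 (0.39) and the lipopolysaccharide-binding protein gene Lbp (−0.15), made by hepatocytes, did not pass. Cnpy3, a chaperone of TLRs, rose by 0.33.

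Of 26 adaptors, kinases and transcription factors downstream of TLRs, 5 fell, 3 rose and 18 did not pass in males, beside the 11% lower and 9.68% higher of all genes. The list's median was 0.04, against 0.06 over all genes. Irf7, the interferon regulator of endosomal TLRs, fell by 0.75, and Ticam2, the adaptor that links TLR4 to TRIF, fell by 1.5 on the log2 scale. Chuk, which encodes the kinase IKKα, rose by 0.36 and Irf3 by 0.43. Irak3, an inhibitory IRAK, fell by 0.95, Ikbke by 0.55 and Traf3 by 0.54, and Irak1 rose by 0.20. Ikbkg (−0.07) and Tab2 (0.06) did not pass.

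Other inflammasome sensors followed the members, with 9 of 12 lower in males and a median of −1.26. Mefv, which encodes pyrin, fell by 1.81, Aim2, a sensor of cytosolic DNA, by 1.44, Naip1 by 1.39 and Naip5, a flagellin receptor, by 1.16 on the log2 scale. The Naip genes are close copies of each other, and reads that match several of them were left out, so their levels are uncertain. Aim2 ranged from 2.44 to 4.04 CPM in male WT and from 0.621 to 1.23 CPM in male SIRT6-tg libraries. Nlrp6 (0.16) and Nlrp12 (0.58) did not pass, at 113 ± 28.3 and 28.4 ± 10.9 CPM in male WT and 126 ± 13.9 and 42.4 ± 13.5 CPM in male SIRT6-tg livers (SD, n = 7 each). The other sensors that fell were Nlrp1a, Nlrp1b, Nlrc4, Naip2 and Naip6, by 0.57 to 1.47 on the log2 scale. Of 12 regulators and effectors, 4 fell and 1 rose. Panx1, a channel upstream of NLRP3, fell by 1.69, Il1b, the main cytokine substrate of caspase-1, by 1.53, Casp4, the caspase of the non-canonical inflammasome, by 1.37 and P2rx7, the ATP-gated channel, by 0.91. Brcc3, the deubiquitinase of NLRP3, rose by 0.23. Txnip (0.18) and Ninj1 (0.27) did not pass.

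Of 8 receptors and inhibitors of IL-1 and IL-18, 4 fell and 1 rose in males. Il1rn, which encodes the IL-1 receptor antagonist, fell by 2.14, Il18bp, the IL-18 binding protein, by 1.44, and the IL-18 receptor genes Il18rap and Il18r1 by 1.35 and 1.33 on the log2 scale. The IL-1 receptor accessory gene Il1rap rose by 0.71. It ranged from 102 to 145 CPM in male WT and from 187 to 225 CPM in male SIRT6-tg livers, without overlap. Il1r1 (−0.16) and Sigirr (0.41) did not pass. Of 11 other innate sensors, 8 fell and 1 rose. The C-type lectin receptors Clec4e, Clec7a (dectin-1) and Clec4d fell by 4.05, 2.31 and 2.10, and Sting1, the adaptor of cytosolic DNA sensing, by 1.35 on the log2 scale. Nod2 (−1.84), Cgas (−0.62), Nod1 (−0.59) and Ripk2 (−0.33) were lower too, and Mavs, the adaptor of RNA helicase sensors, rose by 0.26. The RNA helicase sensors Ifih1 (−0.18) and Ddx58 (−0.19) did not pass. In females 0 of the 83 genes of these 7 lists passed the edgeR test, DESeq2 called 0, and 2 (Ikbke and Il1b) had an unadjusted p under 0.05. In the interaction, 19 of the 83 genes had a lower effect in males and 2 (Il1rap and Cnpy3) a higher one. The list of 26 adaptors gave 0 calls there by edgeR, with 5 at an unadjusted p under 0.05 (Ticam2, Irf3, Irf7, Traf3 and Irak1) and 1 call by DESeq2.

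**Figure D4:**
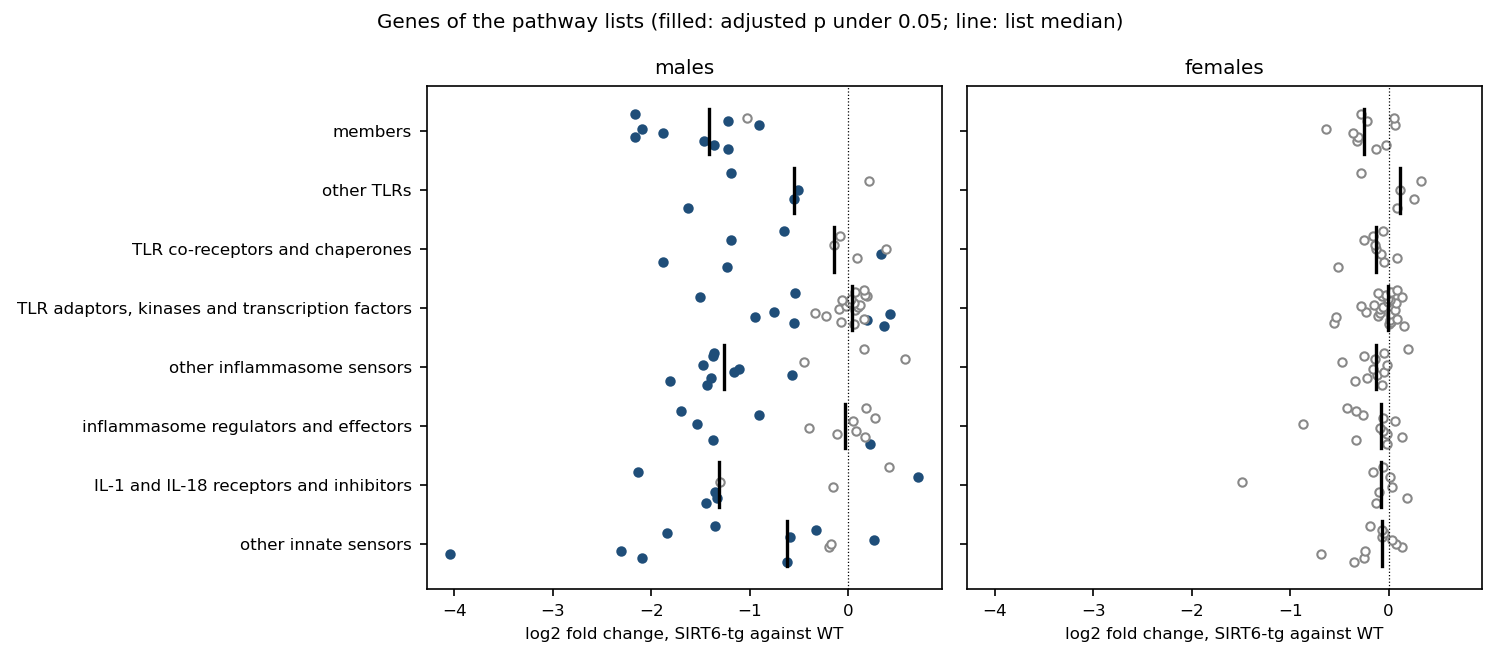
Log2 fold change between SIRT6-tg and WT mice of each gene of the members and of 7 pathway lists, in males (left) and females (right). Filled points passed an adjusted p of 0.05 and the line marks the list median, which in males is −1.41 for the members, −1.26 for other inflammasome sensors and 0.04 for adaptors, kinases and transcription factors.

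Finally, the members were compared with each other across libraries after the group means were removed. As a description over 28 libraries, Tlr8 and Tlr9 varied most closely together (r = 0.87), followed by Tlr7 and Tlr13 (0.80) and Tlr4 and Nlrp3 (0.79). Casp1 was closest to Pycard (0.73), followed by Tlr13 (0.57) and Tlr2 (0.54). Pycard ran against Tlr9 (−0.54) and Tlr8 (−0.40). Nlrp3 gave −0.12 with its adaptor Pycard and 0.39 with Casp1. Within groups, Tlr8 and Tlr9 also followed the length index of the libraries (r of 0.76 and 0.74). Casp1 (−0.44) and Pycard (−0.73) ran against it. The correlations between members were not recomputed with that trend removed, so its part in them was not tested. Among 12791 expressed genes, those most like Tlr13 included the ectonucleotidase Entpd1 and the macrophage marker Adgre1 (r of 0.88 and 0.84), and those most like Tlr2 were Relb, Apobec1 and Nfkb2 (0.85, 0.84 and 0.83), of which Relb and Nfkb2 encode NF-kB subunits. Tlr1 was most like Itgal, Slc7a8 and Nfam1, Tlr4 like Slc7a8, Cttnbp2nl and Cdh5, and Tlr7 like Fam129a, Msn and C5ar2. Tlr8 and Tlr9 shared Gm1966 among their 3 genes, beside Lrrc41 and Hspg2 for Tlr8 and Ankrd50 and Rybp for Tlr9. Nlrp3 was most like Ppp1r18, Sdc3 and Nckap1l, Casp1 like H2-DMa, Rab7b and Ctla2b, and Pycard like Ccdc115, Clic1 and Ctsd. These values ran from 0.81 to 0.90. They are the 3 highest of 12791 genes for each member, so selection raises them. They were not recomputed with the length trend removed. Nor were they recomputed without male SIRT6-tg replicate 6, where Tlr2 stood far above its group.

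**Figure D5:**
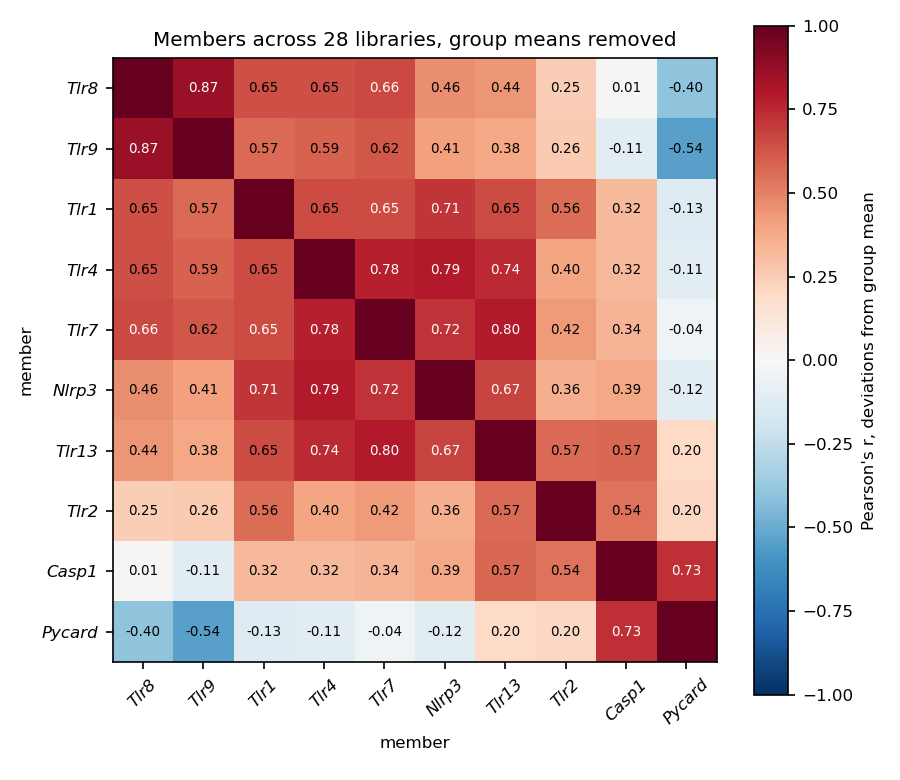
Pearson's r between members of log2 CPM deviations from the group mean over 28 libraries. The trend of the libraries with transcript length was not removed. Tlr8 and Tlr9 (0.87) stand at one corner, and Pycard, with negative values for Tlr9 (−0.54) and Tlr8 (−0.40), at the other.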

How the data were processed

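Liver RNA was sequenced from 28 mice, 7 per sex and genotype, grouped by the sex and genotype in the labels. Per the sources, the authors aligned single-end reads with STAR (2.5.0a) to mm10 with a Gencode annotation, and counted uniquely mapped reads per gene with HTSeq. The deposited values are raw counts, 18758863 to 35393069 per library. The strand setting was not given in the sources used here. Intervals on counts cover counting error only.

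All 28 libraries were fitted together with edgeR 4.0.16 (quasi-likelihood F-test, robust, TMM scaling) in R 4.3.3, for 21583 genes whose normalized count averaged 0.5 or more. Genes were called at a Benjamini-Hochberg adjusted p under 0.05 over all genes. Each SE was computed from the fold change and its F statistic, and 95% intervals used the test's degrees of freedom. Log2 CPM used a prior count of 2, and ratios to markers a pseudocount of 0.1. The fit was first tested on simulated data. Alternatives were DESeq2 1.42.0, other scalings, no filter, 1 sex alone, a replicate block and leaving out each library. Removal of length and GC trends was chosen after seeing the data. Gene positions came from a GRCm38 annotation, in which 43749 of 49585 features had the same versioned identifier.

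The members and lists were chosen with earlier results of these data known. Named genes were all members, Sirt6 and, per pathway list, up to 4 genes that passed with the lowest adjusted p and up to 2 that did not with the highest mean count, plus the 3 genes most like each member among genes whose normalized count averaged 20 or more. Other list genes are named where a count was small and were chosen after their values were seen. A gene that this rule selects is not reported here.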

Additional observations from a re-analysis of the deposited data

Results flagged for a closer look

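Of 40 groups of 7 libraries tested for a value far from the others, 3 had one, where chance gives about 1 in 20. That count is near the chance share, so the values are given as a description. Tlr2 in male SIRT6-tg replicate 6 was high, at 3.73 log2 CPM (319 reads, 13.2 CPM), with the next library at 2.36. That library also had the highest summed macrophage markers of its group, at 234 CPM. Female SIRT6-tg replicate 6 was low for Tlr1, at −0.24 log2 CPM (16 reads), with the next library at 0.64, and for Tlr13, at 0.18 log2 CPM (22 reads), with the next at 1.25. Without it, the female log2 fold changes were −0.19 for Tlr1 and −0.24 for Tlr13, and neither passed the edgeR test (adjusted p = 0.917 and 0.905).

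The effect of SIRT6 overexpression differed between males and females, by the interaction test, for Tlr1 (−1.85 on the log2 scale), Tlr2 (−1.46), Tlr9 (−1.88), Tlr13 (−1.52), Nlrp3 (−1.34) and Casp1 (−1.09), each with the lower value in males. Among these, only Tlr1 and Tlr13 were called in all 28 fits that left out a library. Tlr9 was called in 17 of them, Casp1 in 15, Tlr2 in 14 and Nlrp3 in 10. The Sirt6 level reached differed as well, with 281 ± 55.2 CPM in male and 30.2 ± 12.5 CPM in female SIRT6-tg livers (SD, n = 7 each), so the sex and the level of overexpression cannot be told apart.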

How the results depend on the processing

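In males every member kept a negative log2 fold change under every alternative, and the 9 called members were called in all 14 fits that left out a library and all 9 other fits, which gave 9 to 10 calls. DESeq2 (adjusted p = 0.0324) and library size alone (adjusted p = 0.0285) also called Tlr8. Library size alone moved the male median of all genes from 0.06 to −0.22, and the share of calls that were higher was 46.8% by TMM, 35.7% by RLE, 26.2% by upper quartile, 4.89% by library size alone and 60.4% with length and GC trends removed. For the female contrast, calls over all genes were 6, and 44 by DESeq2, 2 with female libraries alone, 11 with trends removed and 3 to 16 with a library left out, with 0 members throughout. For the sex difference, member calls were 6, 2 to 8 with a library left out, 9 by library size alone, 8 by DESeq2 and 4 without the filter, and calls over all genes were 1088, 801 to 1363 and, by library size alone, 1863. Between WT sexes, member calls were 3, 2 to 5 with a library left out, 7 by library size alone and 5 by DESeq2, and calls over all genes were 2669 and 4212 by library size alone. The cause was not tested. Reversed values belonged to members that had not passed. With a library left out, log2 fold changes in females ran from −0.1892 to 0.081 for Nlrp3 (sign turned in 6 of 14 fits, from 0.0129), from −0.1028 to 0.1584 for Tlr4 (1 fit) and from −0.0985 to 0.1862 for Tlr8 (5 fits), and those of Tlr2 between SIRT6-tg sexes from −0.2647 to 0.1685 (2 fits). Nlrp3 in females was 0.0083 with the replicate block, Tlr2 between SIRT6-tg sexes −0.0156 by upper quartile and −0.0409 by library size alone, and Pycard between SIRT6-tg sexes 0.0389 with trends removed. Replicate numbers did not pair the libraries (r over 0.1 in 5 of 14 pairs, from −0.28 to 0.27, and 3 of 28 libraries closest to their own number). With the replicate block, member calls were 9 in males, 0 in females, 4 for the sex difference, 4 between WT sexes and 5 between SIRT6-tg sexes. Depth limits Tlr8 and Tlr9 most, with as few as 4 and 0 reads.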
